A study of Mus musculus with 4 samples.

Results

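The comparison is between 2 S100a4 knockout lines of a mouse mammary tumor cell line, one edited with a guide RNA against exon 2 of the gene and the other with a guide RNA against exon 3. Genes were taken into it where the mean of the 2 knockout libraries reached 1 RPKM (a read count divided by gene length and by the library total), which held for 10640 of the 21090 genes in the table. Of the other 10450 genes, 3699 had reads in a knockout but a mean under the minimum, and 6751 were listed at 0 in both. The mean closest above the minimum was 1.0004 and the mean closest below it was 0.9993.

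RNA-seq covered 4 lines with 1 library each. By the study's account they go back to a mammary tumor that had spread to the lungs of a mouse in which MMTV-Cre switched on an activated Pik3ca allele and a mutant Trp53 allele, and would then share these alleles and the origin in MMTV-Cre cells, which was not checked here. The parental line carried no vector, the vector control carried the lentiviral vector without an S100a4 guide, and both knockouts carried Cas9 with a guide. The study describes puromycin selection for infected lines in general. Its text does not say separately whether the vector control carried Cas9 and was selected. By the sample titles the exon 2 knockout was made from cells called 308 and the other 3 libraries from cells called 307, although the study's text speaks of 1 starting line. The guide, the cell name and the history of each culture therefore cannot be told apart, and whether a knockout line is a clone or a pool is not given in the sources used here. No line was sequenced more than once, so there was no test between the knockouts, and a difference compares 2 libraries and not 2 guides. The parental line and the vector control served to place each knockout difference against the spread between lines that carry no S100a4 guide.

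S100 proteins are small calcium-binding proteins with a pair of EF-hand motifs. Most of their genes lie side by side in a cluster on mouse chromosome 3. S100a4 binds non-muscle myosin IIA and is known for its part in cell motility and in metastasis of mammary tumors. An EF-hand loop holds calcium through the side chains of a short run of residues, and S100 proteins pair a divergent first loop with a canonical second one.

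The coding parts of the targeted exons are shown because they are the difference in design between the knockouts. In GENCODE M21 (GRCm38) the gene has 3 exons, with its 306 coding bases (stop codon included) in exons 2 and 3. The guide sequences themselves are not printed here. Capitals mark the start codon in exon 2 (chr3:90605012-90605152, plus strand) and the 36 bases of the canonical calcium-binding loop in exon 3 (chr3:90605740-90605901, plus strand).
S100a4 exon 2: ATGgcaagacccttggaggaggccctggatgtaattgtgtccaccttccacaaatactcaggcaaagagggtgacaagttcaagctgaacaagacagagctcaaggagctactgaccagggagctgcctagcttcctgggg
S100a4 exon 3: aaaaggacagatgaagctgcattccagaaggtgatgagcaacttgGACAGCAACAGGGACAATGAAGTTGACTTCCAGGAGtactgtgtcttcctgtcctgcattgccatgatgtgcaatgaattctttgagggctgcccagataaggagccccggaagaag
Exon 2 thus holds the start codon and 47 codons in all, and exon 3 holds the other 54 codons with the canonical loop, followed by the stop codon.

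Library totals behind the RPKM values were 22472024 reads for the exon 2 and 23474246 for the exon 3 knockout, and 25396254 and 31235456 for the vector control and the parental line. The knockouts had 14684848 and 15679574 reads in genes, and 13469 and 13780 genes above 0. S100a4, the targeted gene, was at 1105 RPKM in the exon 2 and 1136 in the exon 3 knockout, 3576 in the parental and 4741 in the vector control line. It was thus lower in both knockouts than in both controls, and its RPKM in the exon 2 knockout was 0.973 times that in the exon 3 knockout (interval 0.943 to 1.004). Intervals here and below are 95% Clopper-Pearson intervals on reads recovered from the RPKM values. They cover counting error only, and neither culture nor library preparation enters them.

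Differences below are exon 2 knockout minus exon 3 knockout on the log2(RPKM + 1) scale unless a fold is named, and a fold at low RPKM is compressed on this scale. The median difference over the 10640 genes was 0.06, the SD 0.52, and 54.5% of genes were higher in the exon 2 knockout. At least 2-fold higher in the exon 2 knockout were 282 genes (2.65% of those compared), and at least 2-fold lower were 257 (2.42%). At least 4-fold higher were 15 genes and at least 4-fold lower 19. The 2 controls stood further apart, with an SD of 0.66 and 861 genes (8.09%) at least 2-fold apart. The balance between directions depended on the scaling, since quantile normalization gave 184 genes higher and 284 lower.

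**Figure D1:**
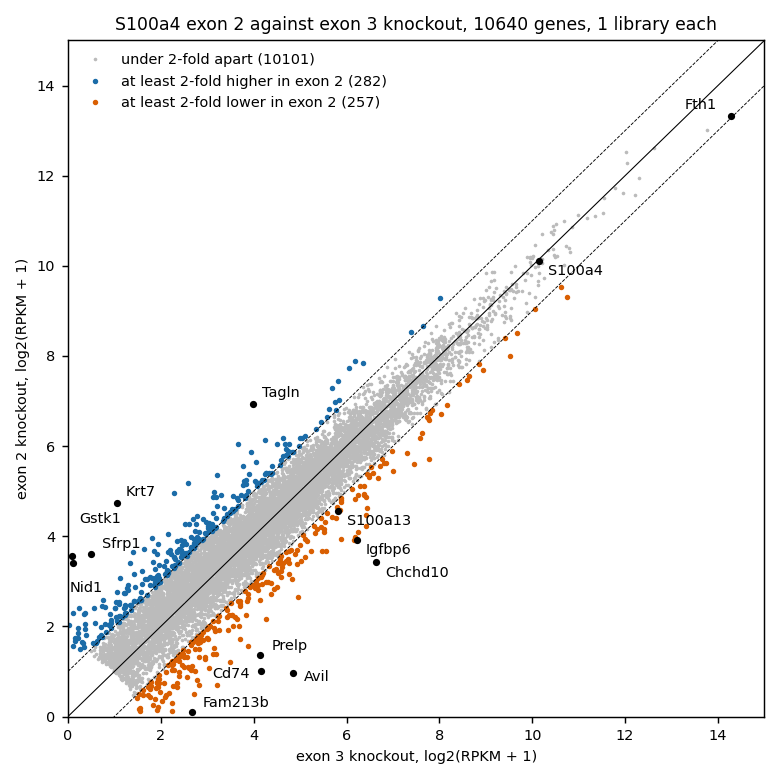
Each point is 1 of 10640 genes, with log2(RPKM + 1) in the exon 3 knockout on the horizontal axis and in the exon 2 knockout on the vertical axis. The solid line marks equal values and the dashed lines a 2-fold difference on this scale. The 282 genes above the band and the 257 below it are coloured, and S100a4 lies on the line of equal values.

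Placed against the controls, the 539 genes at least 2-fold apart between the knockouts were of several kinds. Both knockouts lay between the controls for 36 of them, and 159 (29.5%) were also at least 2-fold apart between the controls. For 154 the knockouts lay on opposite sides of both controls, 68 with the exon 2 knockout on the higher side and 86 with it on the lower side. The exon 2 knockout alone lay outside the controls for 104 genes and the exon 3 knockout alone for 116. In the remaining 129 both lay outside on the same side by unequal amounts, below both controls in 105 and above both in 24.

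The 10 genes with the largest positive difference were Krt7, Gstk1, Nid1, Sfrp1, Tagln, Serpine2, Csn3, Myl9, Slc4a4 and Slc10a6. Krt7, a type II keratin of simple epithelia, was at 25.7 RPKM in the exon 2 and 1.08 in the exon 3 knockout, 1.79 in the parental and 0.795 in the vector control line. It was high in the exon 2 knockout only, with a difference of 3.68 and an RPKM ratio of 23.8-fold (interval 17.6 to 32.95). Csn3 encodes kappa-casein, a milk protein of the mammary epithelium, and was at 35.1 RPKM in the exon 2 and 4.99 in the exon 3 knockout, 5.69 in the parental and 4.54 in the vector control line. Like Krt7 it had 1 high library, the exon 2 knockout, and 3 that were close to each other.

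Other genes of this group were low in the exon 3 knockout instead. Gstk1, a glutathione transferase of mitochondria and peroxisomes, was at 10.8 RPKM in the exon 2 and 0.0626 in the exon 3 knockout, 5.97 in the parental and 16.1 in the vector control line. A single read in the exon 3 knockout stood against 166 in the exon 2 knockout, a ratio of 173 with a counting interval of 30.7 to 6889.8. Nid1, which encodes the basement membrane linker nidogen, was at 9.58 RPKM in the exon 2 and 0.0798 in the exon 3 knockout, 11.6 in the parental and 7.86 in the vector control line. The exon 2 knockout lay between the controls for both genes, and only the exon 3 library stood apart. Myl9, a regulatory myosin light chain, was placed likewise, with 65.5 RPKM in the exon 2 against 11.6 in the exon 3 knockout, beside 44.04 in the parental and 123 in the vector control line.

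Tagln, an actin-binding protein of contractile cells, was at 122 RPKM in the exon 2 and 14.8 in the exon 3 knockout, 29.9 in the parental and 115 in the vector control line. Its exon 2 value lay close to the vector control and its exon 3 value under the parental line, and the controls themselves were 1.91 apart. Sfrp1, a secreted inhibitor of Wnt signalling, was at 11.3 RPKM in the exon 2 and 0.406 in the exon 3 knockout, 4.84 in the parental and 1.04 in the vector control line, with an RPKM ratio of 27.7-fold (interval 14.4 to 61.4). Serpine2, a secreted protease inhibitor, had 30.2 RPKM in the exon 2 against 3.89 in the exon 3 knockout, and 35.1 and 4.49 in parental and vector control cells. Its controls differed by -2.72 (vector control minus parental line), beside 2.68 between the knockouts. The bicarbonate transporter gene Slc4a4 had 11.7 RPKM in the exon 2 against 1.66 in the exon 3 knockout, against 10.8 and 1.904 in parental and vector control cells. Slc10a6, a transporter of sulfated steroids, rested on 2 reads in the exon 3 library against 99 in the exon 2 library, a ratio of 51.7-fold (interval 13.9 to 433).

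The 10 genes with the largest negative difference were Avil, Chchd10, Cd74, Prelp, Fam213b, Inmt, Gstm2, Olfml2b, Igfbp6 and Ccdc80. Avil, an actin-regulating protein of the gelsolin family, was at 0.945 RPKM in the exon 2 and 27.7 in the exon 3 knockout, 1.57 in the parental and 0.567 in the vector control line. The exon 3 knockout was the high library, and the exon 2 knockout lay between the controls. Its RPKM was higher in the exon 3 knockout by 29.3-fold (interval 22.4 to 38.9), and its difference of -3.88 was the lowest of all genes compared. Chchd10, a protein of the mitochondrial intermembrane space, was at 9.71 RPKM in the exon 2 and 98.7 in the exon 3 knockout, 5.22 in the parental and 11.1 in the vector control line. Here too the exon 3 knockout was highest and the exon 2 knockout lay between the controls.

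Cd74 encodes the invariant chain that accompanies MHC class II molecules, and was at 1.01 RPKM in the exon 2 and 16.7 in the exon 3 knockout, 2.02 in the parental and 5.16 in the vector control line. The exon 3 knockout was above and the exon 2 knockout below both controls. Of the 16 immune cell markers in the table, 7 were at 0 reads in both knockouts, the pan-leukocyte marker Ptprc among them, and 2 had a knockout mean of at least 1 RPKM (Cd14 and Cd68). The summed level of the 16 markers was 21.6 RPKM in the exon 3 and 21.0 in the exon 2 knockout.

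Prelp, a small leucine-rich proteoglycan, was at 1.57 RPKM in the exon 2 and 16.7 in the exon 3 knockout, 8.15 in the parental and 2.84 in the vector control line, and its RPKM was higher in the exon 3 knockout by 10.7-fold (interval 7.77 to 15). Igfbp6, a secreted binding protein for insulin-like growth factors, had 14.2 RPKM in the exon 2 against 73.9 in the exon 3 knockout, beside 27.95 in the parental and 20.9 in the vector control line. Both had the exon 3 knockout as the highest and the exon 2 knockout as the lowest of the 4 libraries. Fam213b, a prostamide and prostaglandin F synthase, rested on 1 read in the exon 2 library against 76 in the exon 3 library, a ratio of 72.8-fold (interval 12.7 to 2911).

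For the other genes of this group the exon 3 knockout lay within the controls. Inmt, an amine methyltransferase, was at 0.616 RPKM in the exon 2 and 8.31 in the exon 3 knockout, 2.9 in the parental and 24.4 in the vector control line. The glutathione transferase gene Gstm2, whose close relatives in the same cluster can share reads with it, had 1.96 RPKM in the exon 2 against 13.7 in the exon 3 knockout, beside 17.8 in the parental and 7.49 in the vector control line. Both had the exon 2 knockout as the lowest library. Olfml2b, a secreted protein with an olfactomedin domain, had 5.29 RPKM in the exon 2 against 30.1 in the exon 3 knockout, beside 73.7 in the parental and 16.96 in the vector control line. Ccdc80, an extracellular matrix protein, had 1.33 RPKM in the exon 2 against 10.2 in the exon 3 knockout, beside 39.8 in the parental and 5.86 in the vector control line.

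**Figure D2:**
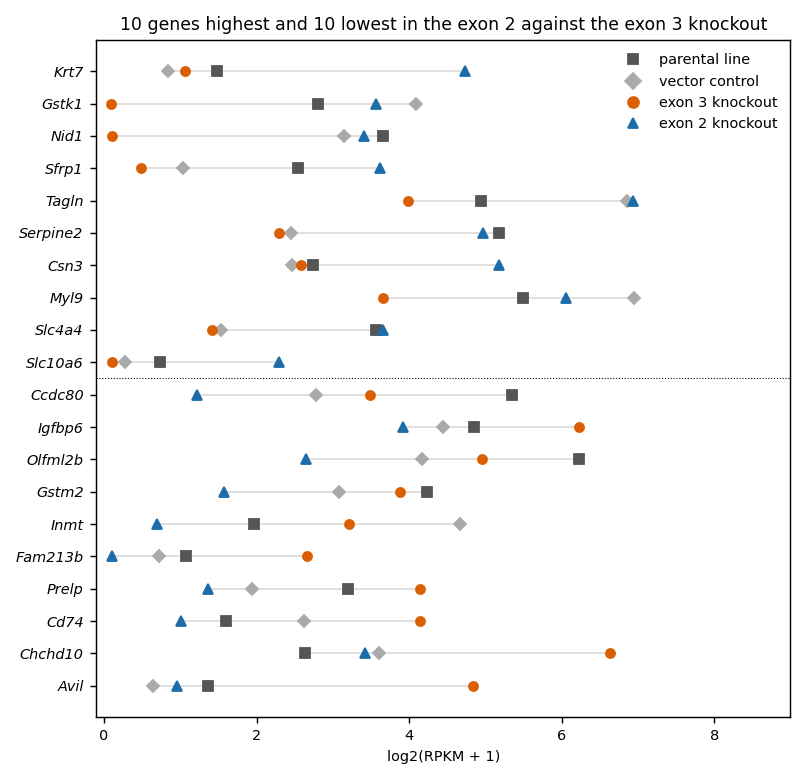
The horizontal axis is log2(RPKM + 1), each row is a gene, and each marker is 1 library (squares parental line, diamonds vector control, circles exon 3 knockout, triangles exon 2 knockout). Above the dotted line are the 10 genes with the largest positive difference and below it the 10 with the largest negative difference. Krt7 and Csn3 show 1 triangle to the right of 3 close markers, and Avil and Chchd10 show 1 circle to the right of 3 close markers.

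A stricter view asked for a library at least 2-fold from each of the other 3. The exon 2 knockout stood apart in this way for 81 genes (0.761% of those compared), 26 higher and 55 lower. Beside Krt7 and Csn3, the 5 highest by their smallest difference were Rbp4, Perp and Irx1. Rbp4, the plasma carrier of retinol, had 4.34 RPKM in the exon 2 against 0.173 in the exon 3 knockout, beside 0.1301 in the parental and 0.267 in the vector control line, with 72 and 3 reads in the knockouts. Perp, a membrane protein of desmosomes, had 3.13 RPKM in the exon 2 against 0.293 in the exon 3 knockout, beside 0.055 in the parental and 0 in the vector control line. Irx1, a homeobox transcription factor, had the most reads of these genes, with 6873 reads in the exon 2 library against 2232 in the exon 3 library, and was at 212 RPKM in the exon 2 and 65.9 in the exon 3 knockout, 35.5 in the parental and 31.1 in the vector control line.

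On the lower side of the exon 2 knockout were nonagouti (symbol a), Zfp503, Slco4a1, Olfml3 and Ccdc80. Nonagouti, a secreted signalling protein known from coat colour, had 1.12 RPKM in the exon 2 against 7.21 in the exon 3 knockout, beside 21.9 in the parental and 14.4 in the vector control line. Zfp503, a zinc finger transcriptional regulator, had 0.0909 RPKM in the exon 2 against 3.72 in the exon 3 knockout, beside 3.78 in the parental and 2.89 in the vector control line, with 4 and 171 reads. The transporter gene Slco4a1 had 3.01 RPKM in the exon 2 against 11.8 in the exon 3 knockout, beside 12.4 in the parental and 125 in the vector control line, so the vector control differed from the parental line by more than the knockouts from each other. Olfml3, another secreted olfactomedin-domain protein, had 1.17 RPKM in the exon 2 against 5.41 in the exon 3 knockout, beside 9.91 in the parental and 11.1 in the vector control line.

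The exon 3 knockout stood apart for 134 genes (1.26%), 32 higher and 102 lower, and this count fell to 59 after each library was corrected for coding GC content and length. Beside Avil, Chchd10 and Fam213b, the highest were Cdsn and Gas6. Cdsn, corneodesmosin, was at 17.8 RPKM in the exon 2 and 85 in the exon 3 knockout, 12.3 in the parental and 12.6 in the vector control line, with 3408 reads in the exon 3 knockout. Gas6, a secreted ligand of the receptor Axl, was at 21.3 RPKM in the exon 2 and 85.01 in the exon 3 knockout, 16.02 in the parental and 16.7 in the vector control line. For both, the exon 2 knockout and the controls were close together and the exon 3 knockout was higher by 2.20 and 1.95. Axl itself had 496 RPKM in the exon 2 against 409 in the exon 3 knockout, a difference of 0.28.

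The lowest in the exon 3 knockout, beside Nid1, Gstk1 and Myl9, were Acpp and Bgn. Acpp, an acid phosphatase, had 4.33 RPKM in the exon 2 against 0.471 in the exon 3 knockout, beside 8.88 in the parental and 4.48 in the vector control line. Bgn, the matrix proteoglycan biglycan, was at 28.1 RPKM in the exon 2 and 8.15 in the exon 3 knockout, 264 in the parental and 375 in the vector control line. Both knockouts lay far below both controls for Bgn, with the exon 3 knockout the lower and an RPKM ratio of 3.45-fold (interval 2.96 to 4.03).

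The knockouts lay on opposite sides of both controls for 860 genes of any size of difference (8.08%), and for 154 of these they were also at least 2-fold apart. The 5 largest positive differences among the 154 were those of Sfrp1, Tagln, Slc4a4, Slc10a6 and Tnnt2. Tnnt2, cardiac troponin T, had 12.2 RPKM in the exon 2 against 2.11 in the exon 3 knockout, beside 5.76 in the parental and 8.53 in the vector control line. The 5 largest negative ones were those of Cd74, Prelp, Fam213b, Igfbp6 and Defb25. Defb25, a beta-defensin, rested on 3 reads in the exon 2 and 31 in the exon 3 knockout, with 0.618 RPKM in the exon 2 against 6.11 in the exon 3 knockout. The difference between the knockouts relative to the controls was not tested for any of them.

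Of the 17 S100 genes in the table, 10 had a knockout mean of at least 1 RPKM. Their median difference was -0.02, beside 0.06 over all genes, with 4 higher and 6 lower in the exon 2 knockout and 2 at least 2-fold lower. The list has no stable direction, since after each library was corrected for coding GC content and length the median was 0.08, with 6 of 10 higher. S100a6 and S100a10, the other abundant members with S100a4, differed by -0.01 and -0.14. S100a6 was at 6263 RPKM in the exon 2 and 6297 in the exon 3 knockout, 7927 in the parental and 6562 in the vector control line. S100a10, a partner of annexin A2, was at 1073 RPKM in the exon 2 and 1186 in the exon 3 knockout, 893 in the parental and 1067 in the vector control line. For these the knockouts lay closer to each other than to the parental line, as they did for S100a4.

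S100a13, known for its part in the export of proteins without a signal peptide, was at 22.7 RPKM in the exon 2 and 55.2 in the exon 3 knockout, 29.4 in the parental and 46.8 in the vector control line. Its RPKM was higher in the exon 3 knockout by 2.43-fold (interval 2.15 to 2.75). S100a1, best known from muscle, was at 114 RPKM in the exon 2 and 208 in the exon 3 knockout, 134 in the parental and 185 in the vector control line, higher in the exon 3 knockout by 1.81-fold (interval 1.66 to 1.99). For both, the exon 3 knockout was the highest and the exon 2 knockout the lowest of the 4 libraries, and the gap between the controls was 0.65 and 0.46. These 2 genes are head-to-head neighbours, S100a1 on the minus strand and S100a13 on the plus strand. The 106 bases from the RefSeq start of S100a1 to that of S100a13 (chr3:90514330-90514435, plus strand, GRCm38.p6) are shown because both genes are read outward from them.
S100a1 to S100a13: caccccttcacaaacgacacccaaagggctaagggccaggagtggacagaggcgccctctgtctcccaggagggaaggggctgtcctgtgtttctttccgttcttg
This stretch was 59.4% G or C. In GENCODE M21 the 2 genes lie closer, with 43 bases from the S100a1 end to the S100a13 start, so part of the stretch falls within S100a1 there.

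S100a11, which works with annexins at membranes, went the other way, at 172 RPKM in the exon 2 and 105 in the exon 3 knockout, 153 in the parental and 134 in the vector control line. It was highest in the exon 2 and lowest in the exon 3 knockout, with an RPKM ratio of 1.63-fold (interval 1.51 to 1.76). S100a1, S100a11 and S100a13 were thus 3 of 10 S100 genes with the knockouts on opposite sides of both controls, beside 8.08% of all genes compared. S100a3, the neighbour of S100a4, was at 20.7 RPKM in the exon 2 and 9.88 in the exon 3 knockout, 6.28 in the parental and 13.5 in the vector control line, a difference of 0.99 beside 0.996 between the controls. S100a16 was at 0.831 RPKM in the exon 2 and 4.88 in the exon 3 knockout, 5.98 in the parental and 0.21 in the vector control line, so that the controls were further apart than the knockouts. S100a5 and S100a7a rested on 10 to 49 reads in each knockout and differed by 0.04 and 0.22. The remaining 7 S100 genes (S100a2, S100a8, S100a9, S100a14, S100b, S100g and S100z) had between 0 and 12 reads in each knockout.

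**Figure D3:**
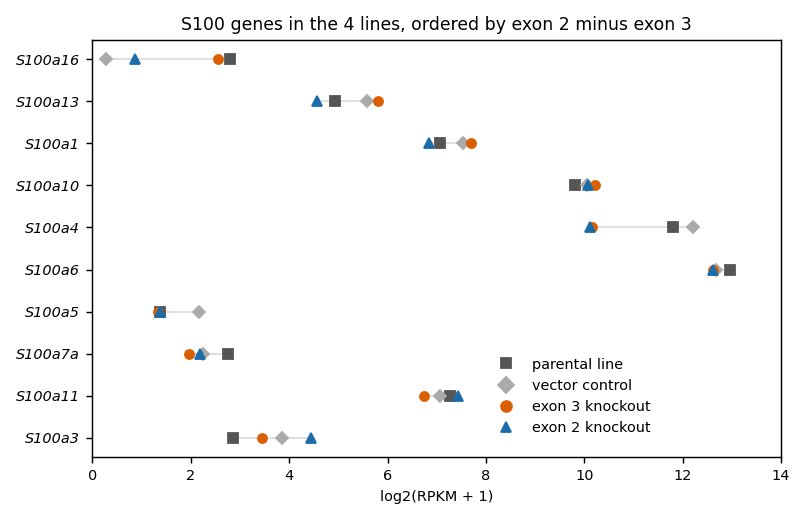
The horizontal axis is log2(RPKM + 1), each row is an S100 gene, and markers are the 4 libraries as named in the legend. S100a4 shows both knockouts together and left of both controls. S100a13 and S100a1 show the exon 2 knockout at the left end and the exon 3 knockout at the right end, and S100a11 shows the reverse.

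Genes of non-muscle myosin, light chains included, and other known partners of S100a4 were taken as a list, of which 11 were compared. Their median difference was 0.36, with 9 higher and 2 lower in the exon 2 knockout. Myh9, the heavy chain of non-muscle myosin IIA, was at 170.2 RPKM in the exon 2 and 132 in the exon 3 knockout, 111 in the parental and 111 in the vector control line. Its controls were nearly equal, and the exon 2 knockout was 0.36 above the exon 3 knockout. The regulatory light chain gene Myl12a, which has a near-identical neighbour and may share reads with it, had 912 RPKM in the exon 2 against 514 in the exon 3 knockout, beside 514 in the parental and 475 in the vector control line. The only member at least 2-fold apart was Myl9. Among 9 annexins, which pair with several S100 proteins, the median was 0.02 and 1 was at least 2-fold apart. This was Anxa3, with 369.6 RPKM in the exon 2 against 167 in the exon 3 knockout, beside 270.5 in the parental and 220.4 in the vector control line.

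Genes of the extracellular matrix differed by class. The counts for each gene list stand beside the shares over all genes compared. Of those, 54.5% were higher in the exon 2 knockout, 2.65% at least 2-fold higher and 2.42% at least 2-fold lower. Collagen chains at or above the minimum of 1 RPKM had the lowest median of the lists with at least 5 genes, -0.89 over 19 genes, with 15 lower and 4 higher in the exon 2 knockout, and 8 lower by at least 2-fold and 0 higher by that much. Without the minimum the median over 35 chains was -0.20, and the lowest list was then that of Nrf2 antioxidant genes. Col1a1, a chain of fibrillar type I collagen, was at 24.2 RPKM in the exon 2 and 54.3 in the exon 3 knockout, 670.3 in the parental and 6.93 in the vector control line. Col4a2, a chain of the basement membrane, was at 56.7 RPKM in the exon 2 and 156 in the exon 3 knockout, 127 in the parental and 84.6 in the vector control line. Col6a2 of type VI collagen was at 71.9 RPKM in the exon 2 and 192 in the exon 3 knockout, 331 in the parental and 137 in the vector control line. Over the same chains the controls differed more than the knockouts, with a median of -1.62 and 18 of 19 at least 2-fold apart. Col1a2, the most abundant chain per length, had 194 RPKM in the exon 2 against 297 in the exon 3 knockout. Type III collagen was among the exceptions, with 23.9 RPKM in the exon 2 against 15.2 in the exon 3 knockout for Col3a1.

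Other matrix lists had medians nearer to that of all genes and held members far apart in both directions. Among 7 small leucine-rich proteoglycans the median was -0.16, with Prelp at least 2-fold lower and Dcn and Bgn at least 2-fold higher in the exon 2 knockout. Dcn, decorin, rested on 56 and 4 reads, with 2.34 RPKM in the exon 2 against 0.16 in the exon 3 knockout. Among 17 metalloproteinases and their inhibitors the median was 0.05, with 3 at least 2-fold higher and 1 lower. Timp1, an inhibitor of metalloproteinases, was at 237 RPKM in the exon 2 and 72.1 in the exon 3 knockout, 209 in the parental and 89.97 in the vector control line. Adamts1, a protease of proteoglycans, had 69.6 RPKM in the exon 2 against 17.9 in the exon 3 knockout, beside 109 in the parental and 13.1 in the vector control line, and its relative Adamts5 had 3.82 RPKM in the exon 2 against 0.275 in the exon 3 knockout.

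Among 6 laminins the median was 0.14 and 1 gene passed 2-fold, Lama5, with 28.4 RPKM in the exon 2 against 7.69 in the exon 3 knockout, beside 44.6 in the parental and 5.33 in the vector control line. Among 16 integrins and integrin-like genes the median was 0.03, with 2 at least 2-fold higher and 3 lower. The collagen receptor chains Itga10 and Itga11 were the lowest, with 10.6 RPKM in the exon 2 against 33.5 in the exon 3 knockout for the former and 1.48 RPKM in the exon 2 against 6.103 in the exon 3 knockout for the latter. Both were higher still in the parental line, at 64.5 and 12.99 RPKM. Itgb1, the most abundant chain, had 138 RPKM in the exon 2 against 140.3 in the exon 3 knockout. Among 10 plasminogen activators and serpins the median was -0.02.

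Interferon-stimulated genes were higher in the exon 2 knockout in 36 of 43 cases, with a median of 0.39, 9 higher by at least 2-fold and 0 lower by that much. The group is transcribed in response to interferons and serves antiviral defence. Ifi44 was at 24.4 RPKM in the exon 2 and 8.22 in the exon 3 knockout, 20.96 in the parental and 97.03 in the vector control line. Mx2, an antiviral GTPase, was at 8.66 RPKM in the exon 2 and 2.64 in the exon 3 knockout, 4.799 in the parental and 19.4 in the vector control line. Parp14, an ADP-ribosyltransferase, was at 7.34 RPKM in the exon 2 and 2.26 in the exon 3 knockout, 6.62 in the parental and 27.3 in the vector control line. In these genes the vector control was the highest library and the exon 3 knockout the lowest. The controls differed by a median of 1.25, with 28 of 43 at least 2-fold apart. Ifitm3, the most abundant member, had 1139 RPKM in the exon 2 against 1177 in the exon 3 knockout.

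Genes of MHC class I antigen presentation went the other way, with a median of -0.32, 15 of 19 lower in the exon 2 knockout, 3 lower by at least 2-fold and 0 higher by that much. The controls differed by more, with a median of 0.64. The 3 were H2-Q6, H2-Q7 and H2-Q4, nonclassical class I genes whose near-identical copies can share reads, so each value is uncertain. H2-Q6 had 11.7 RPKM in the exon 2 against 46.4 in the exon 3 knockout, beside 19.4 in the parental and 53.9 in the vector control line. B2m, the common light chain of class I molecules, went against the list with 5936 RPKM in the exon 2 against 4165 in the exon 3 knockout.

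Among 11 chemokine ligands the median was -0.50, with 3 lower by at least 2-fold and 1 higher by that much in the exon 2 knockout. Between the controls it was 0.65, with 6 at least 2-fold apart. Ccl5 had 337 RPKM in the exon 2 against 683 in the exon 3 knockout, beside 212 in the parental and 803 in the vector control line. Cxcl12, the ligand of Cxcr4, was the exception on the higher side, with 57.6 RPKM in the exon 2 against 14.3 in the exon 3 knockout, beside 97.1 in the parental and 30.6 in the vector control line. Among 25 NF-kB targets the median was -0.24, with 9 higher and 16 lower, and 2 at least 2-fold lower (C3 and Ccl5). Among 9 genes of the interleukin 1 and 33 axis the median was 0.05 and none was at least 2-fold apart.

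Antioxidant genes known as targets of Nrf2 were lower in the exon 2 knockout in 23 of 27 cases, with a median of -0.39, 4 lower by at least 2-fold and 0 higher by that much. The controls differed by a median of 0.63, with 6 at least 2-fold apart. Nqo1, a quinone reductase, was at 16.1 RPKM in the exon 2 and 75.3 in the exon 3 knockout, 17.7 in the parental and 92.5 in the vector control line. Hmox1, heme oxygenase, was at 47.9 RPKM in the exon 2 and 175 in the exon 3 knockout, 74.1 in the parental and 201 in the vector control line. For both, the exon 2 knockout was the lowest library, and the exon 3 knockout lay between the controls. The ferritin chains, which store iron, were highest in the exon 3 knockout, with 205 RPKM in the exon 2 against 489 in the exon 3 knockout, beside 94.1 in the parental and 219 in the vector control line for Ftl1 and 10283 RPKM in the exon 2 against 19957 in the exon 3 knockout, beside 4764 in the parental and 6185 in the vector control line for Fth1. The difference of Fth1 was -0.96 and became 0.00 under quantile normalization, as it had the highest RPKM of all genes in both knockouts. Ferritin genes have processed copies in the genome that can share reads, so these levels are uncertain. Srxn1, sulfiredoxin, had 8.56 RPKM in the exon 2 against 20.8 in the exon 3 knockout, beside 10.6 in the parental and 26.4 in the vector control line.

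Stress and metabolic lists stood closer to the median of all genes. Among 33 Atf4 and endoplasmic reticulum stress genes the median was -0.08 (-0.20 after correction for GC content and length). Of these, 24 were lower and none was at least 2-fold apart. Among 22 hypoxia-induced genes the median was -0.06, and among 23 cholesterol synthesis genes -0.19, again with none at least 2-fold apart. Among 19 glycolysis genes it was -0.01, with Aldoc at least 2-fold lower (41.04 RPKM in the exon 2 against 94.1 in the exon 3 knockout). Among 25 p53 target genes it was -0.22, with 9 higher and 16 lower, 1 of them higher and 2 lower by at least 2-fold. The higher one was Perp, with a difference of 1.68. Cdkn1a, an inhibitor of cyclin-dependent kinases, had 33.8 RPKM in the exon 2 against 81.8 in the exon 3 knockout, beside 50.02 in the parental and 45.2 in the vector control line, and the microtubule-associated gene Psrc1 had 26.3 RPKM in the exon 2 against 57.9 in the exon 3 knockout. Among 28 apoptosis regulators the median was -0.11 and 1 was at least 2-fold apart, the proapoptotic gene Bid, with 81.9 RPKM in the exon 2 against 39.8 in the exon 3 knockout.

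Genes of mitosis were higher in the exon 2 knockout in 20 of 26 cases, with a median of 0.30 that fell to 0.11 after correction for GC content and length, and none was at least 2-fold apart. Among 38 DNA replication genes the median was 0.15, with 26 higher. Mcm3, a subunit of the replicative helicase, went against them at 77.7 RPKM in the exon 2 and 195 in the exon 3 knockout, 141 in the parental and 248 in the vector control line, while its partner Mcm4 had 41.6 RPKM in the exon 2 against 21.2 in the exon 3 knockout. Among 27 kinesins the median was 0.13, with Kif15 at least 2-fold higher (3.67 RPKM in the exon 2 against 1.14 in the exon 3 knockout). Among 224 Zfp zinc finger proteins it was 0.19, with 150 higher, 3 higher by at least 2-fold and 1 lower by that much. Over all genes compared, 54.5% were higher, 2.65% higher by at least 2-fold and 2.42% lower by that much. After correction for GC content and length the medians were 0.08 for DNA replication genes, 0.01 for kinesins and 0.09 for Zfp genes. Then 128 of 224 Zfp genes were higher, and Kif15 differed by 0.58.

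Housekeeping complexes had medians slightly below 0, with quartiles on both sides of 0. The median was -0.14 over 83 cytosolic ribosomal proteins, -0.12 over 76 mitochondrial ribosomal proteins, -0.13 over 75 respiratory chain subunits and -0.10 over 37 proteasome subunits. After correction for GC content and length these medians were -0.08, -0.06, -0.09 and -0.14 in the same order. Under quantile normalization they were -0.11, -0.10, -0.06 and -0.01. Only 1 member of each of the first 2 groups was at least 2-fold apart. Mrpl15 was at 51.7 RPKM in the exon 2 and 219 in the exon 3 knockout, 92.4 in the parental and 135 in the vector control line, and Rpl7, which has many processed copies that can share its reads, was at 97.3 RPKM in the exon 2 and 215 in the exon 3 knockout, 162 in the parental and 183 in the vector control line. Both lie on chromosome 1, and for both the exon 2 knockout was the lowest and the exon 3 knockout the highest library. The proteasome subunit gene Psmb6 had the same order, with 175 RPKM in the exon 2 against 383 in the exon 3 knockout, beside 194 in the parental and 326 in the vector control line. No respiratory chain subunit was at least 2-fold apart, and 4 replication-dependent histone genes had a median of -0.29.

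Among signalling lists, that of insulin-like growth factor ligands, receptors and binding proteins held members far apart in both directions. Its median over 7 genes was 0.49, with 2 at least 2-fold higher and 2 lower. The secreted binding protein genes Igfbp6 and Igfbp4 were lower in the exon 2 knockout, with 256 RPKM in the exon 2 against 738 in the exon 3 knockout, beside 177 in the parental and 250.3 in the vector control line for Igfbp4. The RNA-binding proteins Igf2bp2 and Igf2bp3 were higher in it, with 58.6 RPKM in the exon 2 against 25.6 in the exon 3 knockout, beside 50.1 in the parental and 46.7 in the vector control line for Igf2bp2 and 4.32 RPKM in the exon 2 against 1.02 in the exon 3 knockout for Igf2bp3.

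Among 32 Wnt pathway genes the median was 0.22, with 23 higher in the exon 2 knockout, 3 higher by at least 2-fold and 0 lower by that much. Beside Sfrp1 these were the ligand genes Wnt7b and Wnt10a, with 14.3 RPKM in the exon 2 against 5.602 in the exon 3 knockout, beside 28.9 in the parental and 3.34 in the vector control line for Wnt7b and 17.2 RPKM in the exon 2 against 7.51 in the exon 3 knockout for Wnt10a. Among 29 Tgf-beta pathway genes the median was 0.17, with 1 at least 2-fold higher and 2 lower. Bmp4, a bone morphogenetic protein, had 8.31 RPKM in the exon 2 against 2.01 in the exon 3 knockout, beside 5.58 in the parental and 0.546 in the vector control line, and Tgfb3, a Tgf-beta ligand, had 20.6 RPKM in the exon 2 against 50.5 in the exon 3 knockout, beside 47.2 in the parental and 53.7 in the vector control line. Among 16 Notch pathway genes the median was -0.05, with the ligand gene Jag2 at least 2-fold higher (2.88 RPKM in the exon 2 against 0.914 in the exon 3 knockout).

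Among 28 Yap and Tead targets the median was 0.14 and 1 gene was at least 2-fold apart, Foxf2, with 1.83 RPKM in the exon 2 against 6.099 in the exon 3 knockout. Among 23 receptor tyrosine kinases it was 0.10 and none was at least 2-fold apart. Among 27 immediate early genes it was 0.03, with 2 at least 2-fold higher. Klf6, a Krüppel-like transcription factor, had 64.96 RPKM in the exon 2 against 24.5 in the exon 3 knockout, beside 42.5 in the parental and 35.5 in the vector control line, and the transcription factor gene Myc had 402 RPKM in the exon 2 against 201 in the exon 3 knockout, beside 256 in the parental and 153 in the vector control line. Among 14 cathepsins and lysosomal proteins the median was -0.01, with Ctsf at least 2-fold lower (1.35 RPKM in the exon 2 against 4.26 in the exon 3 knockout). Among 16 Hox genes it was -0.14, with Hoxb9 at least 2-fold lower (0.414 RPKM in the exon 2 against 5.54 in the exon 3 knockout, beside 1.02 in the parental and 8.94 in the vector control line).

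Lists that describe cell identity showed no single direction. Of 24 epithelial markers in the table, 6 had a knockout mean of at least 1 RPKM, and the defining markers Epcam and Cdh1 were under 1 RPKM in all 4 libraries, at 0.629 and 0.128 in the exon 3 and 0.657 and 0.117 in the exon 2 knockout. The summed level of the 24 markers was 132 RPKM in the exon 3 and 137 in the exon 2 knockout, so that Krt7 was higher while Krt8, the most abundant, had 54.8 RPKM in the exon 2 against 78.9 in the exon 3 knockout. Of 24 mesenchymal markers, 20 were compared, with a median of 0.12, 10 higher and 10 lower. Their summed level was 3609 RPKM in the exon 3 and 3662 in the exon 2 knockout. Vim, vimentin, had 1721 RPKM in the exon 2 against 1362 in the exon 3 knockout, beside 2418 in the parental and 2060.1 in the vector control line. Loxl2, a collagen cross-linking enzyme, had 0.662 RPKM in the exon 2 against 3.21 in the exon 3 knockout, beside 5.35 in the parental and 6.36 in the vector control line.

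Among 15 transcription factors of the epithelial to mesenchymal transition the median was 0.01 and none was at least 2-fold apart. Among 14 smooth muscle contractile genes it was 0.47 (0.08 over 20 genes without the minimum of 1 RPKM), with Tagln and Myl9 at least 2-fold higher in the exon 2 knockout and Synpo2, on 12 and 173 reads, at least 2-fold lower. Among 12 cadherins, protocadherins and catenins it was 0.32, with 10 higher, 3 higher by at least 2-fold and 0 lower by that much. Cdh2, N-cadherin, was at 49.4 RPKM in the exon 2 and 15.7 in the exon 3 knockout, 29.2 in the parental and 26.7 in the vector control line. The protocadherins Pcdh7 and Pcdh9 had 30.5 RPKM in the exon 2 against 7.79 in the exon 3 knockout, beside 33.4 in the parental and 11.3 in the vector control line for the former and 6.61 RPKM in the exon 2 against 1.43 in the exon 3 knockout for the latter. Of 10 endothelial and 8 adipocyte or stromal markers, 1 each reached the minimum. Eng had 25.7 RPKM in the exon 2 against 37.2 in the exon 3 knockout and Fabp4 had 5.61 RPKM in the exon 2 against 4.73 in the exon 3 knockout.

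Genes that the study names for the knockouts were chosen on these libraries, so their direction against the controls, given above for Bgn and Loxl2, is no independent evidence. Of 13 genes named as lower in the knockouts and compared here, 8 were higher and 5 lower in the exon 2 knockout, with a median of 0.31, and Bgn and Loxl2 were at least 2-fold apart in opposite directions. Of 21 genes named in affected pathways, 15 were higher and 6 lower, with a median of 0.20 that was -0.01 after correction for GC content and length, and none was at least 2-fold apart.

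**Figure D4:**
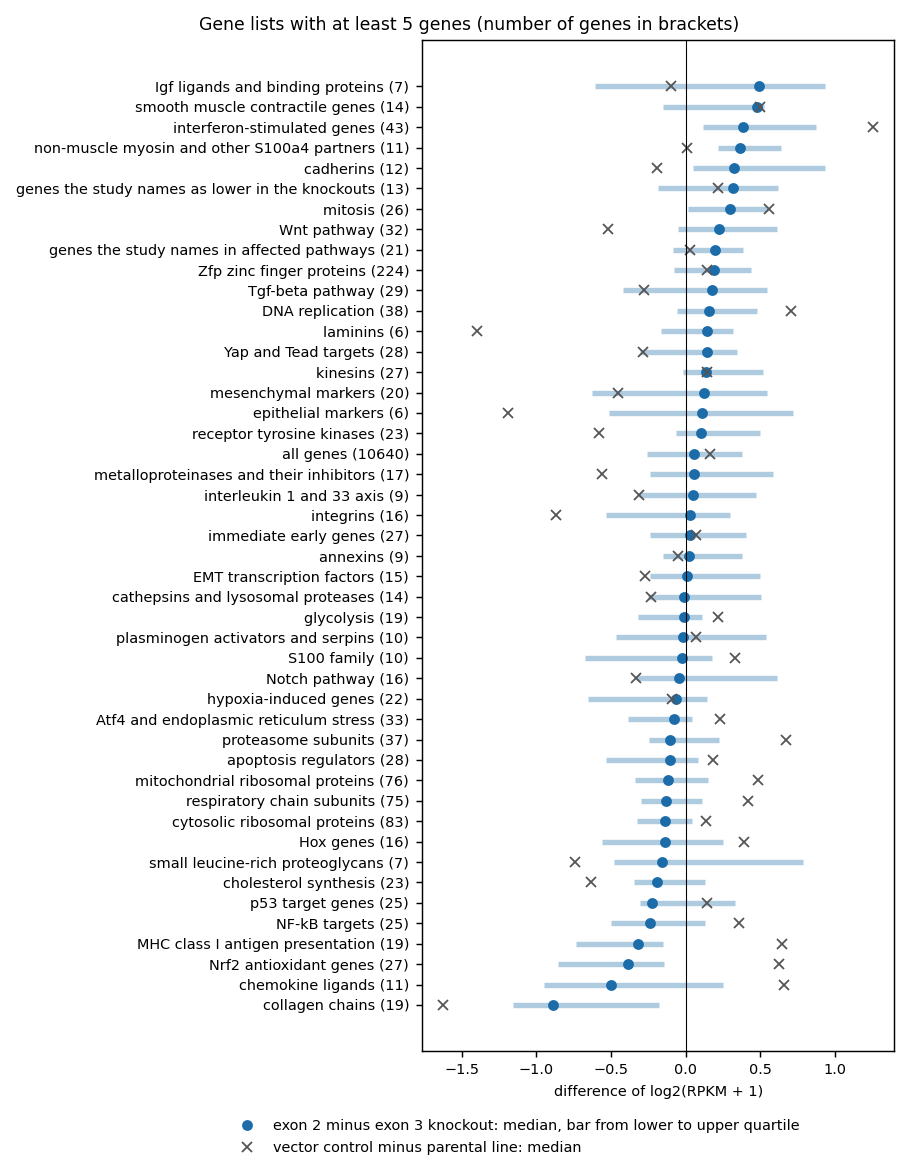
Each row is a gene list with at least 5 genes compared, and the horizontal axis is the difference of log2(RPKM + 1). Circles are the median of exon 2 minus exon 3 knockout with a bar from the lower to the upper quartile, and crosses are the median of vector control minus parental line. Collagen chains stand lowest at -0.89, and for them and for interferon-stimulated genes the cross lies further from 0 than the circle.

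The difference between the knockouts moved with the base composition of genes. Across 10548 genes with a coding sequence in the annotation, which share the same 2 libraries, Pearson's r of the difference with coding GC content was -0.33, and with log2 coding length 0.13. The median difference was 0.43 in the eighth of genes lowest in GC and -0.12 in the eighth highest. Between the controls (vector control minus parental line) the medians of the same eighths were 0.26 and -0.005. Genes at least 2-fold higher in the exon 2 knockout had a median coding GC content of 49.4% and those at least 2-fold lower 56.3%, beside 53.1% over all. After each library was corrected for coding GC content and length, 202 genes were at least 2-fold higher and 222 lower, and the 11 lists of at least 5 genes with medians at least 0.25 from 0 kept their direction. The part of base composition in the differences above was not tested beyond this correction.

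The difference also varied by chromosome. The median was 0.46 on chromosome 13 (366 genes, 84.2% higher in the exon 2 knockout), 0.43 on chromosome 16 (333 genes, 82.9% higher) and 0.30 on chromosome 5 (681 genes, 81.5% higher). It was -0.32 on chromosome 8 (588 genes, 20.4% higher), -0.26 on chromosome 3 (522 genes, 29.5% higher) and -0.22 on chromosome 11 (915 genes, 29.4% higher). These 6 chromosomes kept their sign after correction for GC content and length, with 0.35, 0.36, 0.30, -0.31, -0.32 and -0.20 in the same order. Of the genes named above, Nqo1 and Hmox1 lie on chromosome 8, and Mx2, Parp14, Adamts1 and Adamts5 on chromosome 16. All of them went in the direction of most genes there. Ifi44 lies on chromosome 3 and went against most genes there, and Srxn1, Ftl1 and Fth1 lie on none of the 6. The part of position in these differences was not tested.

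Genes were then grouped in 414 runs of 25 to 27 neighbours along the chromosomes. The median difference was at least 0.5 in 23 runs and at most -0.5 in 9. Between the controls, 6 runs were at least 0.5 from 0. The SD of run medians was 0.27 against 0.18 between the controls, and 0.23 against 0.18 after correction for GC content and length. Uncorrected run medians had an r of -0.49 with the median coding GC content of the run. All 14 runs of chromosome 13 and all 13 of chromosome 16 had a positive median, and all 23 of chromosome 8 a negative one. Chromosome 1 held runs of both kinds close together. In its first run (chr1:4773206-16657042), 26 of 26 genes were lower in the exon 2 knockout, with a median of -0.70. Both Mrpl15 and Rpl7 lie within it. In another run of chromosome 1 (chr1:34678188-38129801), 25 of 26 genes were higher, with a median of 0.72. Against the mean of the controls, the medians in the first run were -1.34 for the exon 2 and -0.75 for the exon 3 knockout. In the other run they were -0.04 and -0.76.

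**Figure D5:**
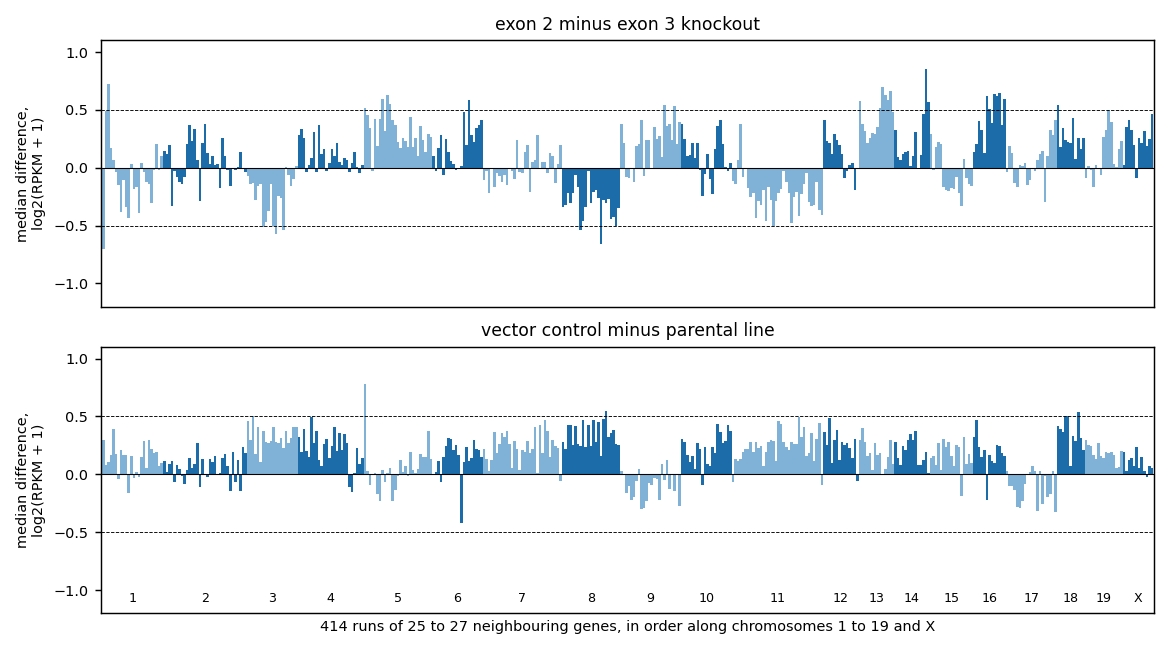
Each bar is the median difference of log2(RPKM + 1) over a run of 25 to 27 neighbouring genes, in order along chromosomes 1 to 19 and X, with shades alternating by chromosome and dashed lines at 0.5 and -0.5. The upper panel is exon 2 minus exon 3 knockout and the lower panel vector control minus parental line. The upper panel shows chromosomes 13 and 16 above 0 and chromosome 8 below 0 throughout.

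The S100 cluster lies in a part of chromosome 3 where most genes were lower in the exon 2 knockout. Of 99 genes compared within 4 Mb of the start of S100a4, 81 were lower and 18 higher, with a median of -0.44, beside 0.30 between the controls. The run that holds all 10 S100 genes (chr3:90265185-94882326) had 26 genes and a median of -0.14, with 7 higher in the exon 2 knockout. Over 9 neighbouring runs around the cluster, chosen after their values were seen (chr3:85971109-108722309), 195 of 234 genes were lower, with a median of -0.44 that was -0.41 after correction for GC content and length. In that stretch the median against the mean of the controls was -0.44 for the exon 2 and -0.003 for the exon 3 knockout. On the rest of chromosome 3, 173 of 288 genes were lower, with a median of -0.13 that was -0.25 after the same correction. S100a13 and S100a1 thus lay in the direction of most genes within 4 Mb, and S100a11 and S100a3 against it. In that window the genes past S100a4 went both ways, so S100a11 had neighbours of both directions. Beyond S100a11, Them4 and Tdrkh differed by 0.23 and 0.75, and Mrpl9 and Snx27 by -0.49 and -0.59.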

How the data were processed

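RNA-seq libraries of 4 mouse mammary tumor cell lines were used, 1 per line, with groups taken from the sample titles. The authors deposited 1 table of RPKM values (read counts divided by gene length and by the library total), without a log scale and without scaling between libraries. Per the labels, RNA was purified with RNeasy and libraries were made with a TruSeq Stranded Total RNA kit, and the submitters' processing notes name CASAVA 1.8, GSNAP and GRCm38. The counting rule and its use of strand are not given in the sources used here. All 4 columns were matched to a sample, and 0 columns of per-sample values were left unmatched.

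Whole reads were recovered from the RPKM values for 100% of genes above 0 (tolerance 0.001 reads). The values scaled with coding length in GENCODE M21, and 55.3% of recovered lengths equalled an annotated coding length, so reads of other genes are known only up to a common factor of each gene. Symbols of 20972 genes were matched to the annotation, 841 of them through an older symbol.

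Genes with a mean of the knockouts of at least 1 RPKM were compared as log2(RPKM + 1), with a pseudocount of 1 and 2-fold as the threshold on this scale. With 1 library per line, no test was run and no SD between replicates or p-value is given. The SDs given are over genes or over runs of genes. Intervals are exact binomial (Clopper-Pearson, 95%) on the share of reads. Genes were named by a rule: S100 genes, the 10 highest and 10 lowest differences, the 5 highest and 5 lowest in which either knockout stood apart or both lay on opposite sides of the controls, and from each of 49 gene lists up to 4 members at least 2-fold apart and the most abundant one. Other members and individual list genes were named after their values were seen. The values of 1 gene that the rule names are not reported here. The members and lists were chosen with earlier results of these data known. Alternatives were a pseudocount of 0.1, median ratio scaling, quantile normalization, a quadratic correction of each library for coding GC content and length, no filter, a minimum of 5 RPKM, 3-fold, and 1 control alone. The calculation was tested on simulated counts. Python 3.11.15 was used, with pandas 2.3.3 for tables, numpy 2.4.6 and scipy 1.17.1 for calculation and matplotlib 3.10.9 for plots.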

Additional observations from a re-analysis of the deposited data

Results flagged for a closer look

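For 31 of the genes that the naming rule gives, the exon 2 and the exon 3 knockout lay on opposite sides of both controls, 16 with the exon 2 knockout on the higher side and 15 with it on the lower side. The same position was found for 860 of 10640 genes (8.08%) whatever the size of the difference, and for 154 of the 539 genes at least 2-fold apart. Most of the 31 were named for a large difference, and the position was more frequent among such genes. The share over all genes is therefore no like comparison for them. The 5 highest and 5 lowest differences among genes in this position had been named for it. With 1 library per line, whether the effects of the knockouts differ was not tested for any of them.

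On the higher side in the exon 2 knockout, exon 2 minus exon 3 on the log2(RPKM + 1) scale was 3.12 for Sfrp1, 2.95 for Tagln, 2.25 for Slc4a4, 2.19 for Slc10a6, 2.08 for Tnnt2, 1.92 for Adamts5, 1.71 for Timp1, 1.60 for Cdh2, 1.53 for Dcn and 1.40 for Igf2bp3. It was 1.37 for Klf6, 1.16 for Igf2bp2, 1.14 for Anxa3, 1.08 for Zfp874b, 1.03 for Zfp184 and 0.70 for S100a11. These include secreted inhibitors (Sfrp1, Timp1), actin and muscle proteins (Tagln, Tnnt2), proteases and matrix proteins (Adamts5, Dcn) and an adhesion molecule (Cdh2). Some lay barely past the nearer control. For Slc4a4 the exon 2 and exon 3 knockouts were 0.10 and -0.13 from it, with the controls -2.025 apart (vector control minus parental line). For Tagln these were 0.08, -0.96 and 1.91, and for Igf2bp3 0.20, -0.035 and 1.16. Cdh2 lay further out, with 0.74, -0.73 and -0.13. The zinc finger genes Zfp874b and Zfp184 both lie on chromosome 13, where 84.2% of genes were higher in the exon 2 knockout. After correction for GC content and length they differed by 0.67 and 0.71.

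On the lower side in the exon 2 knockout, the difference was -3.14 for Cd74, -2.79 for Prelp, -2.56 for Fam213b, -2.31 for Igfbp6, -2.14 for Defb25, -2.07 for Mrpl15, -1.44 for Col4a2 and -1.33 for Foxf2. It was -1.25 for Cdkn1a, -1.24 for S100a13, -1.17 for Ctsf, -1.14 for Rpl7, -1.12 for Psmb6, -1.05 for H2-Q4 and -0.85 for S100a1. For Ctsf the exon 2 and exon 3 knockouts were only -0.04 and 0.18 from the nearer control, with the controls -0.94 apart. For H2-Q4 these were -0.09, 0.11 and 0.845. S100a1 and S100a13 lie on chromosome 3, where 29.5% of genes were higher in the exon 2 knockout. Mrpl15 and Rpl7 lie within the first run of chromosome 1, in which 26 of 26 genes were lower. Defb25, Fam213b and Slc10a6 rested on 1 to 3 reads in the lower knockout.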

How the results depend on the processing

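The 98 named genes at least 2-fold apart kept their direction under the other pseudocount, both scalings and the GC content and length correction, and 98, 96, 93 and 88 of them stayed past 2-fold. No chromosome median, and no median of a list of at least 5 genes, that was at least 0.25 from 0 changed sign under these, without the filter or at a minimum of 5 RPKM. Of the 45 lists, 14 with smaller medians changed sign under at least 1 alternative. Under the GC content and length correction 7 did: the S100 family (-0.02, then 0.08), Hox genes (-0.14, then 0.03), genes named in affected pathways (0.20, then -0.01), glycolysis (-0.01, then 0.04), integrins (0.03, then -0.02), serpins (-0.02, then 0.01) and cathepsins (-0.01, then 0.01). Quantile normalization turned 4, median ratio scaling 2, no filter 6, a minimum of 5 RPKM 4 and the other pseudocount 0. Without the filter, medians moved towards 0 for collagen chains (-0.89 to -0.20), smooth muscle genes (0.47 to 0.08), cadherins (0.32 to 0.12), insulin-like growth factor genes (0.49 to 0.29) and chemokines (-0.50 to -0.33). The counts moved more. A pseudocount of 0.1 gave 527 genes higher in the exon 2 knockout, 147 with the exon 2 and 296 with the exon 3 knockout apart. Quantile normalization gave 184 higher and 80 with the exon 3 knockout apart, and the GC content and length correction gave 59 for the latter. A minimum of 5 RPKM, which leaves fewer genes, gave 187 higher, 160 lower, 41 with the exon 2 knockout apart and 90 at least 2-fold apart on opposite sides of both controls. At 3-fold, 52 were higher and 53 lower, 9 and 10 had the exon 2 or the exon 3 knockout apart, 42 lay on opposite sides, and 297 separated the controls. Against the parental line alone, the exon 2 knockout was apart for 147 genes, the exon 3 knockout for 220, and 288 lay on opposite sides. Against the vector control alone these were 184, 226 and 240. The cause of the other changes was not tested.

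No paired analysis was possible because each group holds 1 library and no comparison had a test. Leaving out a library was not possible either, since each knockout is 1 library. Depth limited genes with few reads in a knockout, such as Fam213b with 1 read in the exon 2 library.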
